A study of Mus musculus with 24 samples.

Results

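The small nucleolar RNA (snoRNA) genes were taken as every probe set of the deposited table whose paired gene symbol, or 1 of whose paired symbols, begins with Snord or Snora. These were 76 of the 35555 probe sets of the table, and they carry 69 snoRNA symbols. Of the 76, 41 belong to C/D box snoRNAs (Snord) and 35 to H/ACA box snoRNAs (Snora). A probe set is a group of short probes on the array whose signals are summarised to 1 value, and the values are log2 intensities.

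The arrays carried RNA from the left ventricle of male mice, 1 mouse per array. Wildtype mice (strain label BL6C57) and Per2-/- mice, which carry a germline mutation of the clock gene Per2 in all cells, each gave 4 groups of 3 arrays, 24 arrays in all. Mice were anesthetized with pentobarbital, and in the treated ones the coronary artery was closed by a hanging weight. The labels of the control hearts call them both untreated and sham operated, and what the sham operation included is not given in the sources used here. They are called sham hearts here. The artery of I30 hearts was closed for 30 minutes and the tissue taken with no reperfusion. IP0 hearts were preconditioned by closing it for 5 minutes and opening it for 5 minutes, 4 times in turn. In I30R60 hearts, closure for 30 minutes was followed by reopening for 60 minutes.

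A C/D box snoRNA guides the enzyme fibrillarin to the ribose that is to be methylated in ribosomal RNA, and an H/ACA box snoRNA guides dyskerin to the uridine that is to become pseudouridine. A few of them, such as U14 (Snord14), U8 (Snord118) and U17 (Snora73), are also needed to cut the ribosomal RNA precursor. In mammals most snoRNAs are not transcribed on their own but lie in introns of a host gene and are released when the intron is spliced out and trimmed. Many host genes encode ribosomal proteins or other parts of the translation apparatus, and others yield a spliced RNA with no protein, as the Snhg genes (small nucleolar RNA host genes) do. snoRNAs from introns of Rpl13a are known from studies of metabolic and oxidative stress.

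By gene spans in the RefSeq table of mouse genes, 73 of the 76 probe sets lie within another gene, here called the host. Ribosomal protein genes hosted 28 of them and noncoding RNA genes 18. Snord118 (U8, 2 probe sets with the same values) and Snord104 lie in no other gene of that table. The host had a probe set of its own, paired with 1 symbol, for 49 of the 76, which gave 34 different host probe sets. A further limit is that 11 of the 76 probe sets are paired with a snoRNA and another gene at once.

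Those 11 shared probe sets are the pairs of Snord14d and Snord14c with Hspa8 (2 probe sets), Snord32a and Snord34 with Rpl13a, Snord68 with Rpl13, Snord14a with Rps13, Snora65 with Rpl12, Snora43 with Snhg7, Snora24 with Snhg8, Snora26 with Dancr and Snord7 with AI450353. In these a signal of the spliced host transcript cannot be told apart from that of the snoRNA. In all 76, mature snoRNA, the excised intron and the unspliced host transcript cannot be told apart, and the labels and the methods name different RNA extractions (Trizol and silica columns), which recover short RNA differently. Of the snoRNAs, 9 had 2 probe sets each, and 5 probe sets repeated the values of another, which left 71 different ones.

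Since snoRNAs from introns start with the transcription of their host, the starts of some hosts are shown here: Rpl13a, Rps12, Snhg12, Snhg3, Tcp1 and Ipo7, whose snoRNAs passed a test below. Each line gives 10 bases before the RefSeq start and 20 bases from it (5′ to 3′, on the strand of the gene, GRCm38.p6), with the longest run of pyrimidines (C or T) in capitals. A pyrimidine run that begins at the first base of a messenger RNA is a mark of many genes of the translation apparatus. The runs marked here begin at -9 (Ipo7) to 12 (Tcp1) bases from the RefSeq start and need not be runs of that kind.
Rpl13a (chr7:45128726-45128755, minus strand): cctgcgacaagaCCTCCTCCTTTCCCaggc
Rps12 (chr10:23787190-23787219, minus strand): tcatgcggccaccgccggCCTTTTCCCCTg
Snhg12 (chr4:132308668-132308697, plus strand): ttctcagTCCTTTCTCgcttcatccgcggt
Ipo7 (chr7:110018305-110018334, plus strand): gCTTCTCTTTCCTTTCgcgccggttgccgc
Snhg3 (chr4:132353667-132353696, minus strand): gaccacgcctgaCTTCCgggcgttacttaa
Tcp1 (chr17:12916319-12916348, plus strand): cccctacttccggcgttttcagTTTTTCgc
The run was 14 bases long in Rpl13a, 11 in Rps12, 9 in Snhg12 and 15 in Ipo7, and 5 and 6 in Snhg3 and Tcp1. Other hosts whose snoRNAs passed a test below are not shown, and most had shorter runs. Where a start was used here, their runs were 9 in 2410006H16Rik, 7 in 1110038B12Rik, 6 in Rpl4 and Rbmx, 4 in Rpl13 and Tpt1, and 2 in Eif5, Kansl2 and Rps3a1. For 10 of the 52 hosts no start was used, among them Hspa8, Rpl23a and Snhg4, whose snoRNAs also passed a test. A run of at least 8 pyrimidines was found in 11 of the 42 host genes with a start used here (26.2%) and in 11.2% of all 32851 starts of the table. This describes the letters of these windows, and binding or transcription at them was not measured.

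The Per2 probe set did not separate the genotypes. It read 5.33, 5.94 and 6.10 in wildtype sham hearts and 5.69, 5.65 and 5.63 in Per2-/- sham hearts, and its difference between them was -0.13 (SE 0.27, adjusted p = 0.968, limma). Whether its probes lie in the part of the gene that the mutation removes was not tested. Markers of heart muscle summed to nearly the same log2 level in all 24 arrays (14.93 to 15.08), while 4 arrays had high Myl7, the atrial myosin light chain: wildtype sham replicates 1 and 2, Per2-/- sham replicate 3 and Per2-/- IP0 replicate 3 (5.22 to 11.21 against 2.79 to 3.73 in the other 20). Markers of lung epithelium summed to 6.13 to 8.29 in wildtype I30 hearts and 5.09 to 5.22 in wildtype sham hearts, and those of neutrophils to 7.43 to 8.69 in wildtype I30R60 and 7.80 to 8.52 in Per2-/- I30R60 hearts, against 6.83 to 7.06 and 6.26 to 6.59 in sham hearts. In a tissue sample, fewer cells of a type and less RNA per cell cannot be told apart.

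The 76 snoRNA probe sets spanned nearly the whole range of the array. Their means over the 24 arrays ran from 2.25 for Snord58b to 11.43 for Snord104, with a median of 5.68, and 61 of them lay above 4.44, the median of all values of the table. The highest after Snord104 were Snora52 (10.79), Snord57 (10.45), Snord49b (9.76) and a probe set of Snord14d and Snord14c (9.21), and the lowest after Snord58b were Snora36b (2.29) and the other Snord58b probe set (2.42). These are levels of single probe sets with their own probes and lengths, so that they do not rank the snoRNAs against each other. Within groups the median SD was 0.225 log2 units for snoRNA probe sets and 0.199 for all.

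A limma model of group means over the 24 arrays gave the difference of each treatment from sham within a genotype. Changes with a Benjamini-Hochberg adjusted p below 0.05, over the 23099 probe sets with a gene symbol, were called. The same model gave the mean of both genotypes' changes, the difference between these changes (interaction) and the difference between genotypes within a treatment. In at least 1 of the 9 comparisons with sham, 26 of the 76 snoRNA probe sets were called, which is 34.2% of them, and 12.4% of all probe sets were. The 26 hold 2 probe sets of Snord118 with the same values and 3 of U14 snoRNAs in Hspa8, so that they are not 26 separate results. The comparisons of a genotype share its sham hearts and are not independent of each other. Each replicate was a different mouse. The p-values rest on the spread within groups of 3 hearts, estimated over all 8 groups together and not in the compared groups alone.

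After IP0 and I30R60 snoRNA probe sets lay mostly above the sham hearts, and after I30 mostly below. In wildtype hearts, 64 of 76 were above sham after IP0 (median log2 difference 0.22), 68 after I30R60 (0.25) and 18 after I30 (-0.21). The Per2-/- counts were 61 (0.15), 48 (0.096) and 20 (-0.13). Over all probe sets tested the medians of these 6 comparisons lay between -0.034 and 0.0096. Host gene probe sets stayed close to the whole table, with medians of -0.050 to 0.031.

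**Figure D1:**
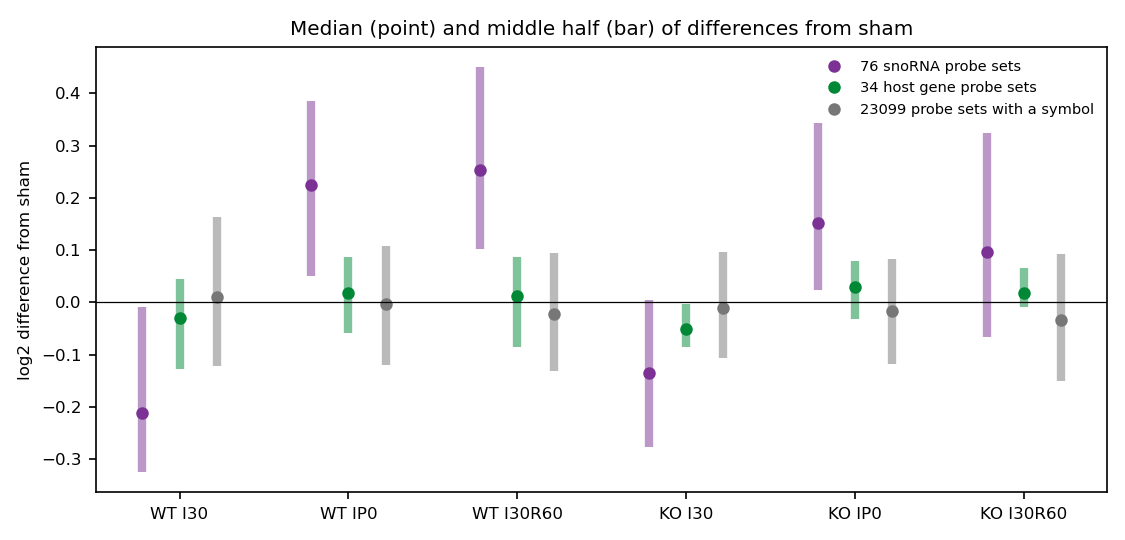
Log2 difference from the sham hearts of the same genotype (y axis) for each treatment and genotype (x axis). Points are medians and bars run from the 25th to the 75th percentile over 76 snoRNA, 34 host gene and 23099 probe sets with a symbol. The snoRNA medians lie at -0.21 and -0.13 after I30 and above 0 after IP0 and I30R60, while host medians stay within -0.050 and 0.031.

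Most of these differences were not called. In wildtype hearts 3 snoRNA probe sets rose and 4 fell after I30, where 2.14% of all probe sets were called (1% higher and 1.14% lower). After IP0, 6 rose and none fell (0.71% of all called, 0.446% higher and 0.264% lower), and after I30R60, 14 rose and none fell (2.39% of all called, 1.56% higher and 0.831% lower). The 3 rises after I30 were all U14 probe sets in Hspa8. The 6 after IP0 were these 3, the 2 of Snord118 with the same values, and Snora61. Snord118 (2 probe sets) and Snora61 made up the 3 rises in Per2-/- IP0 hearts. In Per2-/- hearts none was called after I30 (0% of all). There 11 of the 76 snoRNA probe sets and 1665 of all 23099 probe sets had an unadjusted p under 0.05 (limma). In Per2-/- hearts 3 rose after IP0 (0.13% of all called, 0.0996% higher and 0.0303% lower) and 8 rose after I30R60 (4.46% of all called, 2.55% higher and 1.91% lower). Averaged over both genotypes, 3 rose and 9 fell after I30 (1.49% of all called, 0.693% higher and 0.801% lower). In that mean 9 rose after IP0 (1.9% of all called, 0.965% higher and 0.931% lower). I30R60 hearts had 16 rises and 1 fall (8.82% of all called, 4.12% higher and 4.7% lower). By box class, 8 of 41 C/D box and 1 of 35 H/ACA box probe sets fell after I30 in this mean. After I30R60, 7 of the 41 and 9 of the 35 rose. The difference between the classes was not tested.

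**Figure D2:**
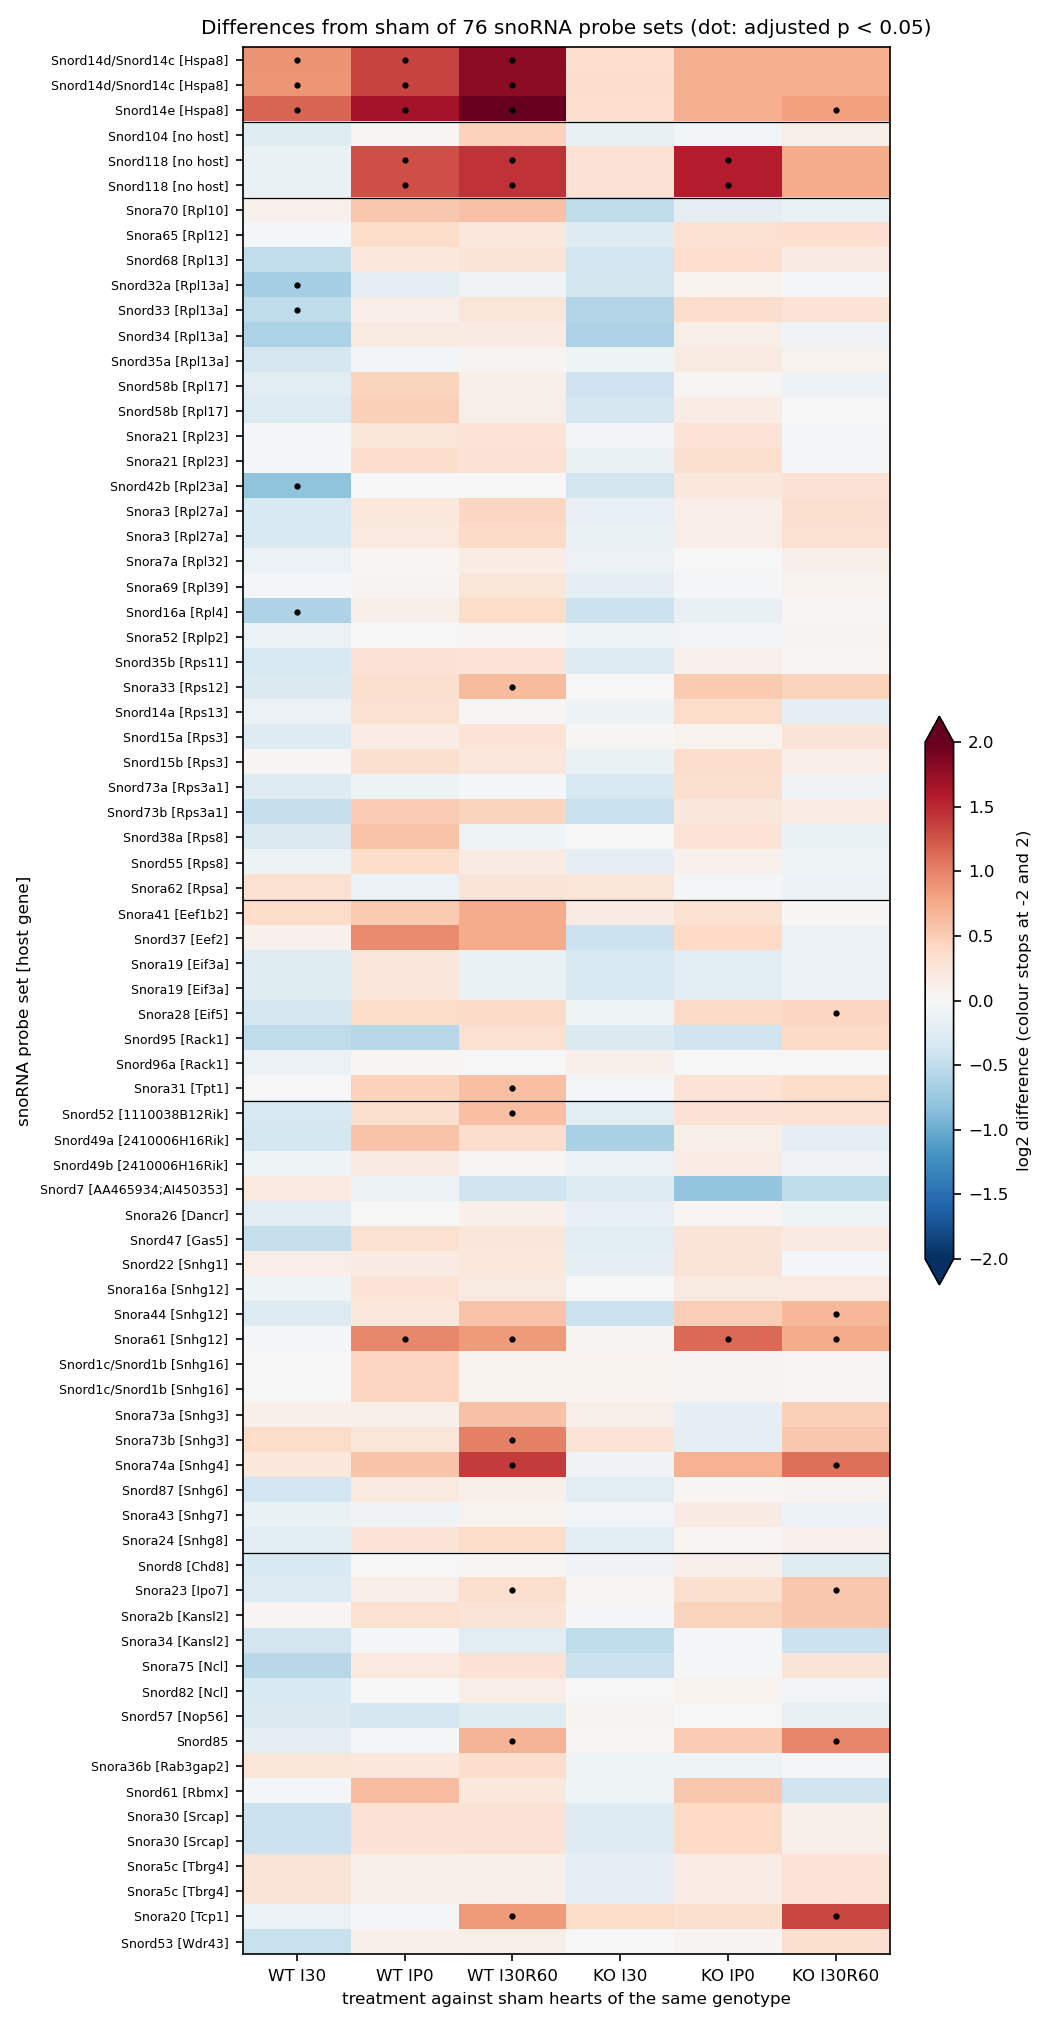
Log2 difference from sham hearts of the same genotype for each of the 76 snoRNA probe sets (rows, with the host gene in brackets except for Snord85, grouped by kind of host) in 6 comparisons (columns). Red is higher than sham, blue is lower, and a dot marks an adjusted p under 0.05. The Hspa8 rows at the top are red throughout, and the dots in the block of ribosomal protein hosts stand mostly in the column of wildtype I30.

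In wildtype hearts the largest called rises after each of the 3 treatments were those of U14 snoRNAs in introns of Hspa8. Hspa8 encodes the constitutive heat shock protein Hsc70, and U14 both guides a methylation of 18S ribosomal RNA and takes part in cutting its precursor. The Snord14e probe set (10584580) read 7.05, 7.37 and 6.93 in wildtype sham hearts, 8.38, 8.18 and 8.30 after I30, 8.52, 8.89 and 8.91 after IP0, and 9.49, 9.15 and 9.49 after I30R60. No array of a treated wildtype group reached down to the sham hearts. The means rose in the order sham, I30, IP0, I30R60, and the arrays of each neighbouring pair of groups did not overlap.

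In wildtype hearts Snord14e differed from sham by 1.17 after I30 (SE 0.19, adjusted p = 0.00772, limma), by 1.66 after IP0 (SE 0.19, adjusted p = 0.000209) and by 2.26 after I30R60 (SE 0.19, adjusted p = 1.1e-06). In Per2-/- hearts it read 7.65, 7.83 and 8.20 in sham, 8.22, 8.47 and 8.02 after I30, 9.12, 8.40 and 8.35 after IP0, and 8.72, 8.51 and 8.89 after I30R60. There the sham and I30 arrays overlapped, and the difference was called after I30R60 (0.81, SE 0.19, adjusted p = 0.0179), with 0.34 after I30 and 0.73 after IP0 not called. The 3 Per2-/- sham arrays lay above all 3 wildtype sham arrays (difference 0.78, SE 0.19, adjusted p = 0.141), and the 3 Per2-/- I30R60 arrays lay below the wildtype ones (-0.67, SE 0.19, adjusted p = 0.211). The change after I30R60 was smaller in Per2-/- hearts by 1.45 log2 units, which did not pass the test (SE 0.27, adjusted p = 0.283).

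The 2 probe sets paired with Snord14d, Snord14c and Hspa8 (10584576 and 10584578) moved in the same way and by somewhat less. The former read 8.18, 8.40 and 8.08 in wildtype sham hearts and 9.96, 9.93 and 10.13 after I30R60, a difference of 1.78 (SE 0.20, adjusted p = 2.68e-05, limma). After I30 its difference was 0.89 (adjusted p = 0.0307) and after IP0 1.35 (adjusted p = 0.00229). The Per2-/- differences were 0.34, 0.73 and 0.71 (lowest adjusted p = 0.0534) and none was called. U14 copies of 1 cluster are alike in sequence, so that the signals of Snord14c, Snord14d and Snord14e may not be separate, and the 3 probe sets are not 3 independent results.

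The spliced host did not move by a like amount. Hspa8 had 3 probe sets of its own at group means of 12.24 to 12.67 in all groups. In wildtype hearts their differences from sham lay between -0.06 and 0.02 after I30, between 0.08 and 0.15 after IP0 and between 0.12 and 0.19 after I30R60. In the 6 comparisons of 1 genotype none of the 3 was called. In the mean of both genotypes after I30R60, 1 of the 3 rose by 0.17 (SE 0.05, adjusted p = 0.0457). These values lie high in the range of the table, and whether the array follows changes fully at that level was not tested.

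**Figure D3:**
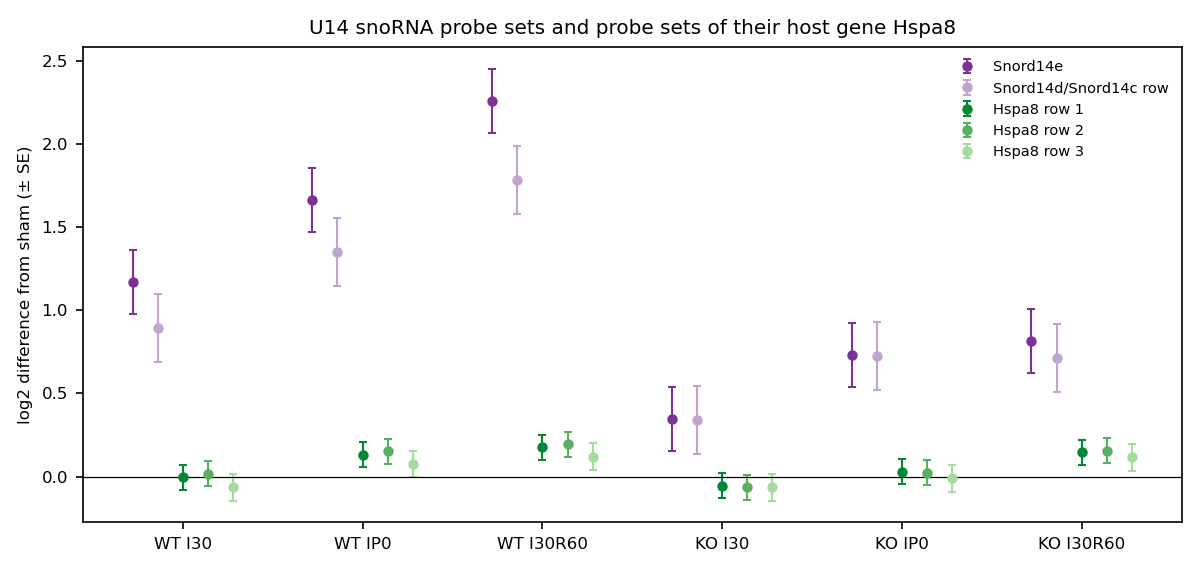
Log2 difference from sham (y axis, with SE from the limma model) for Snord14e, a probe set of Snord14d and Snord14c, and the 3 probe sets paired with Hspa8 alone, by genotype and treatment (x axis). The snoRNA differences reach 2.26 and 1.78 in wildtype I30R60 hearts, and those of Hspa8 reach 0.19.

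Snord118, the U8 snoRNA, had the largest called rise after IP0 in Per2-/- hearts and in the mean of both genotypes. U8 is needed for the maturation of 5.8S and 28S ribosomal RNA and has a promoter of its own. It read 5.21, 4.81 and 4.79 in wildtype sham hearts, 4.97, 4.74 and 4.69 after I30, 7.04, 6.07 and 5.57 after IP0, and 6.47, 6.43 and 6.27 after I30R60. Snord118 in Per2-/- hearts read 4.48, 4.93 and 4.94 in sham, 5.22, 5.12 and 4.87 after I30, 5.99, 6.32 and 6.74 after IP0, and 5.41, 5.82 and 5.34 after I30R60. The IP0 arrays lay above all sham arrays in both genotypes, as did the I30R60 arrays, while the I30 arrays overlapped with sham.

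The difference of Snord118 after IP0 was 1.29 in wildtype (SE 0.26, adjusted p = 0.025, limma) and 1.57 in Per2-/- hearts (SE 0.26, adjusted p = 0.0151). After I30R60 it was 1.45 in wildtype hearts (SE 0.26, adjusted p = 0.00299) and 0.74 in Per2-/- hearts, which was not called. The I30R60 arrays of the genotypes did not overlap (Per2-/- minus wildtype -0.86, SE 0.26, adjusted p = 0.241). Its call in wildtype IP0 hearts was lost without wildtype IP0 replicate 1 or 2 or wildtype sham replicate 2 or 3 (highest adjusted p = 0.105). The call in Per2-/- IP0 hearts was lost without Per2-/- sham replicate 1 or IP0 replicate 2 or 3 (highest adjusted p = 0.132), and the mean over both genotypes passed in every setting with 1 array left out.

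Snora61, an H/ACA box snoRNA in the noncoding host Snhg12, rose after IP0 and I30R60 in both genotypes. It read 5.81, 5.67 and 6.13 in wildtype sham hearts, 7.05, 6.59 and 6.85 after IP0, and 6.95, 6.68 and 6.53 after I30R60. Per2-/- hearts gave 5.49, 6.07 and 5.83 in sham, 6.82, 7.10 and 6.86 after IP0, and 6.39, 6.87 and 6.34 after I30R60. None of these treated arrays overlapped with the sham arrays of either genotype.

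Its differences were 0.96 and 0.85 in wildtype hearts (SE 0.18 each, adjusted p = 0.015 and 0.0125, limma) and 1.13 and 0.74 in Per2-/- hearts (SE 0.18 each, adjusted p = 0.0115 and 0.0236) after IP0 and I30R60. After I30 it lay at 5.63, 5.74 and 6.14 in wildtype and 5.87, 5.69 and 5.97 in Per2-/- hearts, overlapping with sham. The other 2 snoRNAs of Snhg12 did not move by the same amount. Snora44 rose by 0.67 in Per2-/- I30R60 hearts (SE 0.17, adjusted p = 0.0273) and by 0.62 in the mean of both genotypes (SE 0.12, adjusted p = 0.00197), and Snora16a had a difference of 0.19 in that mean, which was not called. Differences between the 3 were not tested.

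Snora20, Snord85, Snora23, Snora74a and Snora73b were called after I30R60 and not after IP0, and the difference between these treatments was not tested. Snora20, in an intron of Tcp1, which encodes a subunit of the chaperonin that folds actin and tubulin, read 3.99, 4.69 and 4.15 in wildtype sham hearts and 5.04, 4.97 and 5.39 after I30R60. Per2-/- hearts gave 3.98, 3.75 and 3.97 in sham and 5.42, 5.10 and 5.16 after I30R60. The I30R60 arrays lay above every other array of the 24, and the differences were 0.86 (SE 0.18, adjusted p = 0.0126, limma) and 1.33 (SE 0.18, adjusted p = 0.000164). After IP0 the arrays of both genotypes lay between 4.11 and 4.32, above the 3 Per2-/- sham arrays (0.32) and overlapping with the wildtype ones (-0.04), and neither difference was called. The Tcp1 probe set lay at 9.21 to 9.47 in all 24 arrays.

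Snord85, a C/D box snoRNA, read 4.49, 4.81 and 4.84 in wildtype sham hearts and 5.68, 5.06 and 5.45 after I30R60 (difference 0.68, SE 0.15, adjusted p = 0.0176, limma). In Per2-/- hearts it read 4.43, 4.37 and 4.39 in sham and 5.56, 5.24 and 5.31 after I30R60 (difference 0.97, SE 0.15, adjusted p = 0.000572). Snora23, in the nuclear import receptor gene Ipo7, was more even between arrays and changed less. It read 7.73, 7.75 and 7.74 in wildtype sham hearts and 8.07, 7.99 and 8.11 after I30R60 (0.32, SE 0.08, adjusted p = 0.0486), and 7.52, 7.44 and 7.54 and then from 7.99 to 8.12 in Per2-/- hearts (0.54, SE 0.08, adjusted p = 0.000524). After IP0 the mean differences of both genotypes were 0.24 for Snord85 and 0.23 for Snora23 (adjusted p = 0.308 and 0.0527). In Per2-/- hearts the IP0 arrays of both snoRNAs lay above sham (0.51 and 0.32, not called). Ipo7 itself differed from sham by -0.0012 in the mean of both genotypes after I30R60.

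Snora74a, the U19 snoRNA in the noncoding host Snhg4, read 5.32, 6.32 and 5.76 in wildtype sham hearts and 7.47, 6.66 and 7.44 after I30R60 (difference 1.39, SE 0.28, adjusted p = 0.00839, limma), and 5.08, 6.05 and 6.22 in Per2-/- sham hearts and 6.72, 6.74 and 7.18 after I30R60 (1.096, SE 0.28, adjusted p = 0.0294). Within each genotype the arrays did not overlap. Snora73b, a copy of U17 in Snhg3, rose by 1.00 in wildtype I30R60 hearts (SE 0.25, adjusted p = 0.0379), where its arrays read 9.04, 8.30 and 7.88 against 7.10, 7.65 and 7.45 in sham, and its neighbour Snora73a had a difference of 0.53 in the mean of both genotypes, which was not called. After IP0 the mean differences were 0.63 for Snora74a and 0.03 for Snora73b, neither called.

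**Figure D4:**
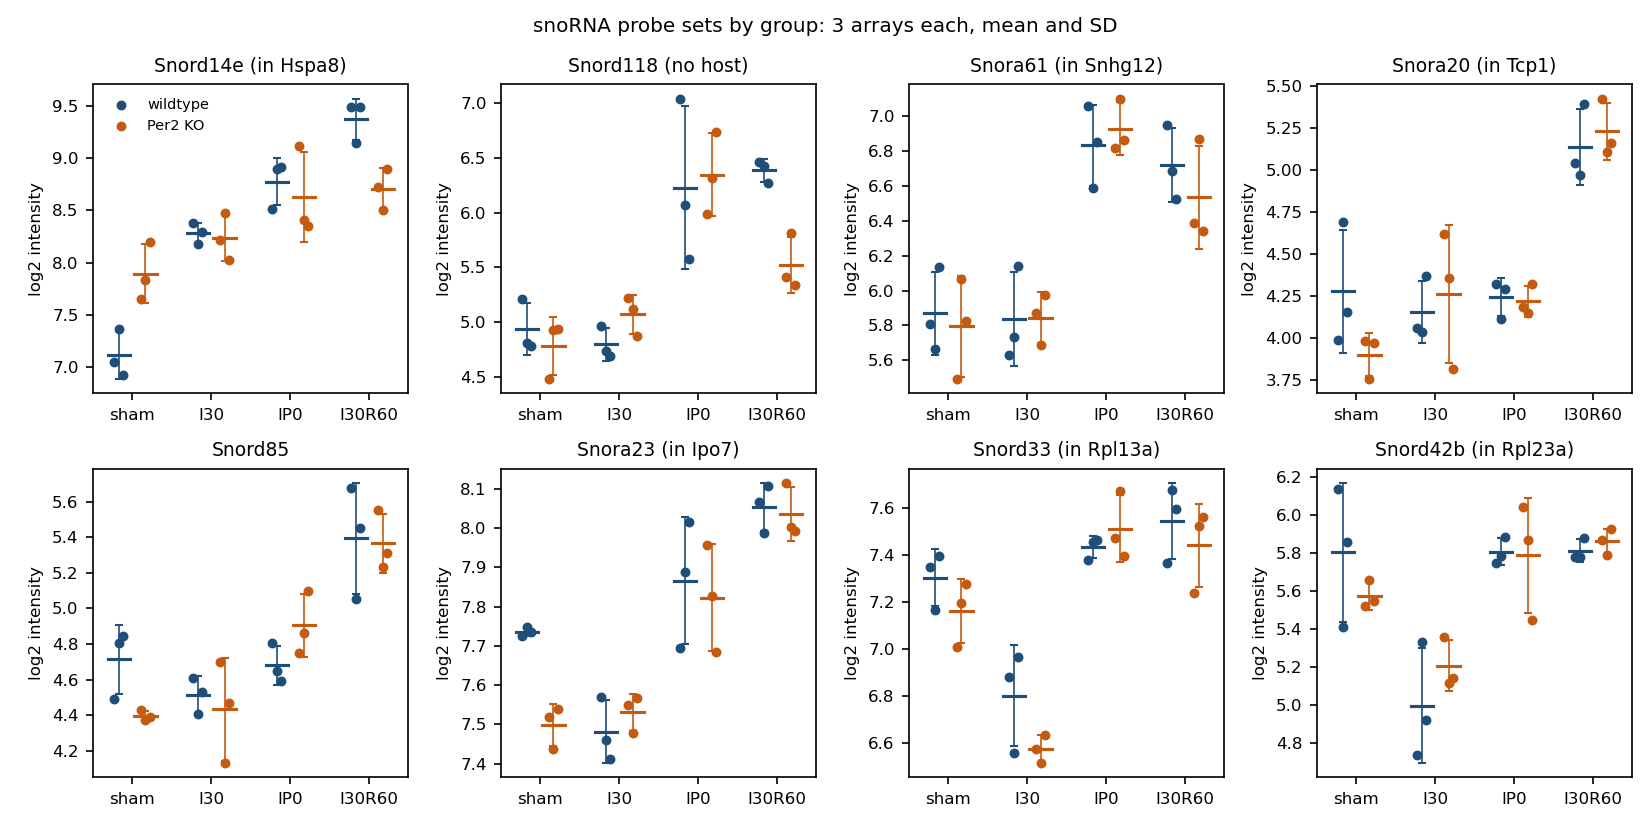
Log2 intensity (y axis) of 8 snoRNA probe sets in each of the 24 arrays, by treatment (x axis) and genotype (blue wildtype, orange Per2-/-, shown as Per2 KO), with lines for group means and bars for SD, n = 3. The y axes do not start at 0. Snord14e, Snord118 and Snora61 stand high after IP0 and I30R60, Snora20, Snord85 and Snora23 after I30R60, and Snord33 and Snord42b stand low after I30.

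Other snoRNAs rose in the mean of both genotypes. After I30R60 these were Snora33 in Rps12 (0.54, SE 0.09, adjusted p = 0.000538, limma), Snora31 in Tpt1 (0.48, SE 0.10, adjusted p = 0.0049), Snord52 (0.45, SE 0.11, adjusted p = 0.0113) and Snora28 in Eif5 (0.40, SE 0.07, adjusted p = 0.00105). Snora33 and Snora28 rose also after IP0, by 0.42 and 0.38, as did Snord61 in Rbmx by 0.58 (SE 0.11, adjusted p = 0.0104). Snord61 read 4.90, 4.60 and 4.94 in wildtype and 4.85, 4.84 and 4.70 in Per2-/- IP0 hearts, above all sham arrays (4.11 to 4.47). After I30R60 it read 4.57, 4.49 and 4.12 in wildtype and 3.68, 4.13 and 3.77 in Per2-/- hearts, and its mean difference was not called.

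After I30 the snoRNAs that fell came mostly from ribosomal protein genes. Of 28 probe sets with such a host, 27 lay below sham in the mean of both genotypes, and 7 of these were called lower and none higher (0.801% of all probe sets were called lower). Of all 76 snoRNA probe sets 17 lay above sham, and whether those with ribosomal hosts differ from the others was not tested. These 7 were Snord34, Snord33 and Snord32a in Rpl13a, Snord42b in Rpl23a, Snord16a in Rpl4, Snord73b in Rps3a1 and Snord68 in Rpl13. The other 2 falls were Snord49a, in the noncoding host 2410006H16Rik, and Snora34, in Kansl2.

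Snord33 read 7.35, 7.17 and 7.40 in wildtype sham hearts and 6.88, 6.56 and 6.97 after I30, and 7.01, 7.20 and 7.28 and then 6.58, 6.51 and 6.64 in Per2-/- hearts. All 6 I30 arrays lay below all 6 sham arrays, and the mean difference was -0.54 (SE 0.08, adjusted p = 0.0109, limma). Snord32a read 8.68, 8.50 and 8.58 in wildtype sham and 7.82, 7.91 and 7.99 in wildtype I30 hearts, and 8.18, 8.49 and 8.48 and then 7.84, 8.08 and 8.15 in Per2-/- hearts (mean difference -0.52, SE 0.09, adjusted p = 0.0155). Snord34 read 6.57, 6.19 and 6.55 and then 5.62, 6.04 and 5.76 in wildtype hearts, and 6.38, 6.51 and 6.45 and then 6.01, 5.76 and 5.69 in Per2-/- hearts (mean difference -0.63, SE 0.12, adjusted p = 0.0217). In all 3 the I30 arrays lay below every sham array of both genotypes. The fourth snoRNA of this gene, Snord35a, had a mean difference of -0.21, which was not called.

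Snord42b read 6.14, 5.41 and 5.86 in wildtype sham and 4.74, 5.33 and 4.92 in wildtype I30 hearts, and 5.52, 5.66 and 5.55 and then 5.36, 5.12 and 5.14 in Per2-/- hearts. Its mean difference was -0.59 (SE 0.12, adjusted p = 0.0231, limma), and in wildtype hearts it was -0.81 (SE 0.16, adjusted p = 0.019). In wildtype hearts alone Snord32a (-0.68), Snord16a (-0.61) and Snord33 (-0.50) were also called. With 1 array left out, the wildtype call of Snord16a was lost in 9 of 24 settings (adjusted p up to 0.147, limma). That of Snord33 was lost in 4, that of Snord42b in 3 and that of Snord32a in 2. The mean differences of both genotypes not yet given were -0.52 for Snord16a, -0.50 for Snord49a, -0.46 for Snord73b, -0.44 for Snord68 and -0.43 for Snora34. Of the 9, Snora34 was also called lower after I30R60, by 0.32 (SE 0.10, adjusted p = 0.0436), which was the fall in that comparison. This call was lost in 15 of 24 settings with 1 array left out (adjusted p up to 0.116). Of the 9 falls after I30 in the mean of both genotypes, only that of Snord33 kept its call in every such setting. The call of Snord68 was lost in 21 of them and that of Snord49a in 18.

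No probe set paired with Rpl13a, Rpl4 or Rpl23a alone was called beside their snoRNAs. Those that Rpl13a shares with Snord34 and Snord32a were called, as given above. The Rpl13a probe set of the highest level lay at 10.19 to 10.47 in all sham and I30 arrays, and its 2 probe sets had mean differences of -0.0018 and 0.0067 after I30. For Rpl4 the difference was -0.043, and for the 13 probe sets of Rpl23a, whose many processed copies in the genome may share signal, it ran from -0.033 to 0.041. Gas5, the noncoding host of Snord47, lay lower after I30 in all 4 of its probe sets (-0.53 to -0.27 in the mean of both genotypes), of which 1 was called (adjusted p = 0.0217, limma), and 1 of the 4 was called in wildtype hearts (adjusted p = 0.0195), while Snord47 was at -0.34 and not called. The ribosomal host signals are high and near-identical copies make them uncertain.

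Other features of these arrays differed from sham after I30. Over all rows of the table, the interquartile range of the values was narrower in I30 hearts (wildtype 3.76 to 3.87, Per2-/- 3.85 to 3.98) than elsewhere (3.95 to 4.11). Of 5 lung markers, 3 rose after I30 in the mean of both genotypes, with the summed levels given above for wildtype hearts and 5.40 to 6.03 in Per2-/- I30 against 5.28 to 5.85 in Per2-/- sham hearts. The red cell marker Alas2, the single one of its list measured here, read 5.85 to 6.72 in wildtype and 5.92 to 7.23 in Per2-/- I30 hearts against 5.08 to 5.46 and 4.67 to 5.62 in sham hearts (mean difference 1.05, adjusted p = 0.0611, limma). Neutrophil markers summed to up to 8.54 in wildtype and 6.79 in Per2-/- I30 hearts, with none of 6 called. With quantile normalization, 2 of the 12 calls in the mean of both genotypes were left (1 higher, 1 lower), without the 4 arrays with high Myl7 there were 0, and the count without 1 array ran from 2 to 12. The median over snoRNA probe sets stayed below 0 in each of these (-0.098 with quantile normalization and -0.092 without the 4 arrays). The part of array scale, lung or atrial tissue, red cells and neutrophils in the falls was not tested.

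Changes of snoRNAs were set beside those of their host genes in 46 pairs of different probe sets, with 34 hosts. In the mean of both genotypes the median absolute difference of the snoRNAs was 0.21 after I30, 0.20 after IP0 and 0.20 after I30R60, and that of the hosts was 0.042, 0.061 and 0.057. The snoRNA had the larger absolute difference in 39, 35 and 37 of the 46 pairs. A probe set with more spread between arrays has larger absolute differences even without a change. In a comparison of 1 genotype the median SE of the snoRNA probe sets was 0.174, and the Hspa8 host probe set had 0.075. The part of unequal spread in these medians and counts was not tested. Of the 46 snoRNA probe sets 11, 6 and 9 were called, and of the 34 host probe sets (that of the highest mean for each host) 0, 0 and 2, which were Hspa8 and Rps12 after I30R60. Of all probe sets 1.49%, 1.9% and 8.82% were called in these comparisons, and the 2 host calls are 5.88% of the 34. Whether the host probe sets lie beside the snoRNA in the genome was not tested. Rps12, the host of Snora33, had 12 probe sets that all rose after I30R60, by 0.23 to 0.32. Among host probe sets outside the 34, 1 of Gas5 was called after I30, as given above, and 1 of 5 of Rpsa, the host of Snora62, after I30R60 (adjusted p = 0.0204, limma).

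Across the pairs Spearman's rho between the 2 differences was 0.058 after I30, 0.18 after IP0 and 0.20 after I30R60, and 0.068, 0.047 and 0.029 without the 3 pairs of Hspa8. These are correlations across genes measured on the same arrays, with hosts shared between pairs, and describe these data only. Whether snoRNA and host probe sets answer alike to an equal change of RNA was not tested.

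**Figure D5:**
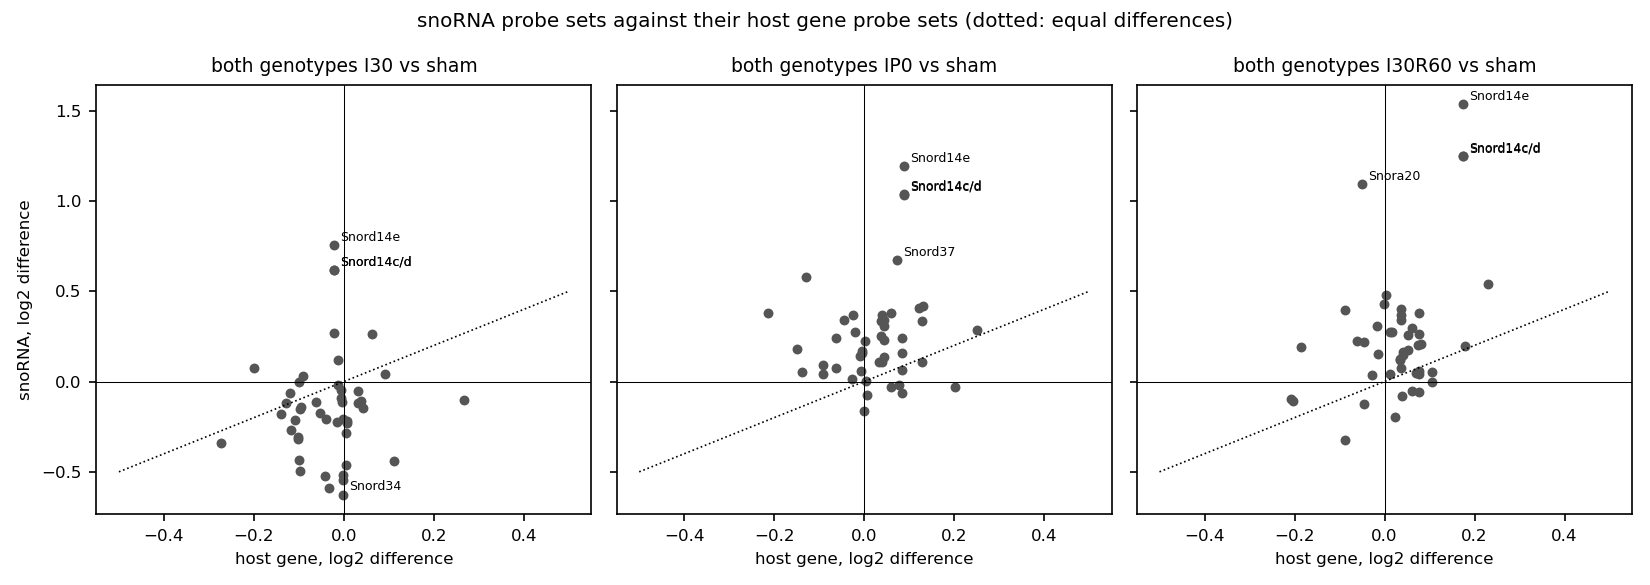
Log2 difference from sham, mean of both genotypes, of 46 snoRNA probe sets (y axis) against their host gene probe sets (x axis) after I30, IP0 and I30R60. The dotted line marks equal differences. Hosts lie within about 0.3 of 0, while Snord14e reaches 0.76, 1.19 and 1.54 and Snora20 reaches 1.09 after I30R60, where Tcp1 is at -0.051.

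No snoRNA probe set was called in an interaction of genotype and treatment. At an unadjusted p under 0.05 there were 4 for I30, 9 for IP0 and 6 for I30R60 in limma, and the methods' test gave 0 adjusted calls with 2, 4 and 9 unadjusted ones. Of all probe sets, 0.0173%, 0% and 0% were called in these comparisons. Between genotypes within a treatment none was called either, in sham hearts (6 at an unadjusted p under 0.05, 0.242% of all probe sets called), after I30 (3, 0.636% of all), after IP0 (4, 0.0996% of all, 0.0563% higher and 0.0433% lower) and after I30R60 (15, 0.221% of all, 0.0779% higher and 0.143% lower). Of all 23099 probe sets 1634, 2780, 1310 and 1961 had an unadjusted p under 0.05 in these 4 comparisons (limma). The methods' test also called 0 snoRNA probe sets in each of the 4, with 5, 4, 3 and 10 at an unadjusted p under 0.05. After IP0, 3 probe sets were called in both genotypes, those of Snord118 and Snora61. After I30R60 these were 6, namely Snord14e, Snora20, Snora61, Snora74a, Snord85 and Snora23, with 8 more called in wildtype and 2 more in Per2-/- hearts. Of the 6, the wildtype call of Snora23 was lost in 18 of 24 settings with 1 array left out (adjusted p up to 0.157) and the Per2-/- call of Snord14e in 4 (up to 0.0907). The wildtype or Per2-/- calls of Snora20, Snora61, Snora74a and Snord85 were lost in at most 3 settings each. After I30 none was called in both.

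Some genes of the core proteins that bind snoRNAs were called. Of 4 core proteins of C/D box particles, Nop58, a scaffold of the particle, rose after I30R60 by 0.64 in wildtype and 0.84 in Per2-/- hearts (SE 0.13 each, adjusted p = 0.00853 and 0.000526, limma), and the methylase fibrillarin (Fbl) rose by 0.48 in the mean of both genotypes after IP0 (SE 0.09, adjusted p = 0.00654). Of 4 core proteins of H/ACA box particles, Gar1 rose by 0.53 after IP0 (SE 0.09, adjusted p = 0.00224) and by 0.33 after I30R60 (SE 0.09, adjusted p = 0.0166). In that mean 1 of 4 in each list was called higher after each of these treatments and none was called after I30. Of all probe sets, 0.965% were called higher after IP0 and 4.12% after I30R60, and 1.49% were called after I30. The lists of 4 had medians of 0.17 and 0.023 after I30R60, where the median of all probe sets was -0.028.

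Among factors around them 1 rise and 9 falls were called after I30R60 in the mean of both genotypes, where 4.12% of all probe sets were called higher and 4.7% lower. Of 10 assembly factors 1 rose (Hsp90aa1, an Hsp90 chaperone, by 0.83) and 2 fell (Shq1, a chaperone of dyskerin, by 0.53, and Rpap3 by 0.30). Of 12 genes of snoRNA end processing 3 fell, the poly(A) ribonuclease Parn (-0.31), the cap methylase Tgs1 (-0.27) and the nuclear exosome subunit Exosc10 (-0.20). Of 17 genes of RNA polymerase I transcription 3 fell, Ttf1 (-0.44), Taf1a (-0.29) and Ubtf (-0.25), and of 24 proteins of the U3 particle that cuts the ribosomal RNA precursor 1 fell, Imp3 (-0.27). Of 8 long noncoding RNAs and 4 small Cajal body RNA probe sets none was called in the mean of both genotypes. After I30 the calls in these lists were a fall of Wdr75 (-0.27), a U3 particle protein, and after IP0 falls of Imp3 (-0.24) and Exosc10 (-0.21).

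Of the 76 snoRNA probe sets 50 were called in none of the 9 comparisons with sham. Among them were Snord57 in Nop56 and Snora52 in Rplp2, which had the highest signals after Snord104. Their mean differences of both genotypes were -0.12, -0.17 and -0.20 for Snord57 and -0.10, -0.03 and 0.03 for Snora52 after I30, IP0 and I30R60. Snord104 had -0.20, -0.01 and 0.28. A missing call does not show that a snoRNA kept its level, since the median SE of a single comparison was 0.174 log2 units.

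Snord37 in Eef2, the elongation factor that moves the ribosome along, had 0.67 after IP0, larger than several called values, and did not pass. Snord95 in Rack1, a protein of the small ribosomal subunit, had -0.39, -0.47 and 0.35, and Snord96a of the same gene had -0.01 and 0.02 after I30 and IP0. Neither was called. Snord47 in Gas5, a noncoding host that holds many snoRNAs, had -0.34, 0.29 and 0.19 with no call.

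Of the 11 probe sets shared with another gene, the Hspa8 pair rose and Snord34, Snord32a and Snord68 fell after I30 in the mean of both genotypes, and the other 6 were called in no comparison with sham. Of the 65 not shared, 1 rose and 6 fell after I30. After IP0, 7 of the 65 rose, and I30R60 hearts had 14 rises and 1 fall among them. Of all probe sets 1.49%, 1.9% and 8.82% were called in these 3 comparisons. Snord7, shared with AI450353, had -0.45 after both IP0 and I30R60. Probe sets of Snord3a, Snord13, Snord115 and Snord116 are not analysed here, as no probe set was paired with these symbols.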

How the data were processed

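The authors imported the array files into Partek Genomics Suite and normalized them by RMA, and the deposited table holds log2 intensities of 24 arrays with no detection calls. The methods name Mouse Gene 1.1 ST arrays and the design text a 2.1 ST plate. Of 35555 probe sets, 21218 are paired with 1 gene symbol, 1881 with several and 12456 with none listed, and the 23099 with a symbol were tested with limma 3.58.1 in R 4.3.3 (a mean per group, 16 residual degrees of freedom, Benjamini-Hochberg adjustment, threshold 0.05). The limma test was tried on simulated data. The methods' test was Student's t-test of 2 groups, with ANOVA for interactions and for the mean of both genotypes, and Benjamini-Hochberg adjustment. The paper names t-tests and ANOVA with Bonferroni's post-hoc test for its data in general. For the arrays it states only that different tests were used, so that this need not be the authors' array test. The host of a snoRNA is the gene of the RefSeq table whose span holds it, with strand not used, and its probe set of the highest mean was taken. Start sequences are from RefSeq (GRCm38.p6), and no snoRNA sequence was used. The genes named are the largest called changes of snoRNAs whose arrays did not overlap, the highest and lowest levels, the shared probe sets, the hosts, and list members that changed most. Other calls were named after their values were seen. The members, hosts and lists were chosen with earlier results of these data known. Figures were drawn with matplotlib 3.10.9 in Python 3.11.15. The host of Snord85 is not reported here.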

Additional observations from a re-analysis of the deposited data

How the results depend on the processing

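Counts of called snoRNA probe sets in 16 comparisons were recomputed under 12 alternatives, the methods' test among them, and with each of the 24 arrays left out. Of 192 recomputed counts 168 stayed within 1.5 times the reported one. These include comparisons with a reported count of 0, where 0 again was taken as the same. No called value of a single probe set changed sign. Of 76 such values 56 lost their call under the methods' test and 34 with only the arrays of the groups compared. With every probe set tested 18 lost it, with quantile normalization 13 and with centring 6. With the replicate number as a block 3 lost it, and with array weights 1. Counts are given for wildtype I30, IP0 and I30R60 (reported 7, 6 and 14), Per2-/- IP0 and I30R60 (3 and 8) and the mean of both genotypes after I30 and IP0 (12 and 9). With every probe set of the table tested, wildtype I30 had 3, wildtype I30R60 10 and both I30 5, and with those of 1 symbol wildtype I30 had 4 and both I30 7. With only the arrays of the groups compared, the counts were 0, 3 and 7 in wildtype, 0 and 4 in Per2-/- hearts and 6 for both I30. Under the methods' test of the compared groups alone they were 0, 0 and 0 in wildtype (16, 20 and 19 at an unadjusted p under 0.05), 0 and 0 in Per2-/- hearts (14 and 14 unadjusted) and 0 for both I30 (20 unadjusted), against 8 and 14 for both IP0 and both I30R60. Without the 4 arrays with high Myl7, an alternative chosen after seeing the data that leaves wildtype sham with 1 array assumed to vary like the other groups, they were 0, 3 and 3 in wildtype, 0 in Per2-/- IP0 hearts and 0 for both I30. Quantile normalization left 2 for both I30, array weights gave 14 for both IP0, and centring gave 16 there. The causes of these shifts were not tested. With each array left out, the ranges were 1 to 8, 3 to 7 and 7 to 14 in wildtype hearts (I30, IP0, I30R60), 0 to 1, 0 to 4 and 3 to 11 in Per2-/- hearts, 2 to 12, 8 to 11 and 16 to 20 for both genotypes, and 0 to 1 between genotypes in sham and I30 hearts. The counts that moved by over 1.5 times did so for wildtype I30 without wildtype I30 replicates 1 and 3 (1, 4) or sham replicates 1, 2 and 3 (1, 4, 2), for wildtype IP0 without sham replicate 2 or IP0 replicate 1 (3, 3), and for wildtype I30R60 without sham replicates 1 and 3 (7, 9) or I30R60 replicates 1 and 3 (7, 9). In Per2-/- hearts they did so for IP0 without sham replicate 1 or IP0 replicates 2 and 3 (0, 0, 1), for I30R60 without sham replicate 1 (3), and for I30 without I30 replicate 1 (1). For both I30 these were wildtype I30 replicates 1 and 3 (6, 7), Per2-/- I30 replicates 2 and 3 (3, 6), Per2-/- sham replicates 1 and 2 (6, 3) and wildtype sham replicates 1 and 2 (2, 7). Between genotypes 1 was called in sham hearts without Per2-/- IP0 replicate 1 and in I30 hearts without Per2-/- I30 replicate 1. Of 76 called values 39 kept their call whichever array was left out. The mean correlation of deviations was 0.0131 between arrays of the same replicate number and -0.00657 between arrays of other numbers. In 0 of 28 pairs of groups was every same-number correlation over 0.1. Yet 15 of the 24 arrays had their highest correlation with an array of the same number. Whether arrays of the same number shared more than the number was not tested. With the replicate block the counts were 7, 6 and 14 in wildtype and 0, 3 and 8 in Per2-/- hearts. For both genotypes they were 11, 9 and 18.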
